A study of Mus musculus with 14 samples.

Results

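Rheb1-/- myeloid cells were compared with Rheb1-/- myeloid progenitors, 3 samples against 3, to show which changes of gene expression between these stages were present in mice without Rheb1. The 6 samples were chosen by their labels alone, from 14 samples of mouse blood-forming cells, each measured on 1 single-colour Agilent array. Both groups came from Vav1-cre; Rheb1fl/fl mice, so the deletion was shared by the myeloid cells and the progenitors they were compared with. The samples came from 3 independent experiments. Vav1-cre removes floxed DNA throughout the blood system, and the deletion was therefore not limited to myeloid cells. The wild-type progenitors and wild-type myeloid cells, again 3 samples each, served to set the size of each change beside that in wild-type mice. The labels name the progenitors also as GMP. Whether wild-type mice carried floxed alleles or the cre, how cells were sorted, the age and sex of the mice, and how many animals gave a sample are unknown here. The p-values therefore measure the spread between these samples, part of which may be technical. The other arrays, of hematopoietic stem cells, have 1 sample per genotype and entered only the fit with slide as a block.

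Rheb1 (official symbol Rheb) is a small GTPase of the lysosome surface. Loaded with GTP it switches on mTORC1, a kinase complex that turns amino acid and growth factor supply into protein synthesis, ribosome production and lipid and nucleotide synthesis, and that restrains autophagy and lysosome biogenesis. Myeloid progenitors divide quickly and carry large numbers of ribosomes. As they mature toward neutrophils they first make the proteins of primary granules, then stop dividing and make those of secondary and tertiary granules, and finally gain chemoattractant receptors. On the monocyte path they gain the receptors and oxidase used in phagocytosis, which are not limited to that path.

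Replicate arrays correlated across genes at 0.988 to 0.992, between 58.5% and 67.6% of spots per array were well above background, and no spot was saturated. The number of arrays limits the precision. Rheb1-/- myeloid cell arrays 1 to 3 lay on 1 slide with Rheb1-/- progenitor array 3 (slide 4), and Rheb1-/- progenitor arrays 1 and 2 lay on slide 3. The value with slide as a fixed block, which equals myeloid cells minus progenitor array 3, is given below as the value within the slide. It rests on 1 progenitor array, and its test takes the spread from the other arrays and assumes that this array varied like them. The wild-type myeloid cell arrays had a slide of their own beside a stem cell array, so in myeloid cells genotype and slide cannot be told apart. Wild-type progenitor arrays 2 and 3 lay on slide 3. Wild-type progenitor array 1 lay on slide 2 and was scanned on another day than all other fitted arrays, so slide and scan day also enter the wild-type changes. Rheb read 3.26, 2.65 and 2.60 in progenitors and 2.15, 2.10 and 2.36 in myeloid cells, in log2 units relative to the array's 75th percentile, which is the scale of all levels below. Its change of -0.63 ± 0.22 (SE, n = 3 per group, limma adjusted p = 0.0244) was -0.40 within the slide and did not pass there (limma adjusted p = 0.324). It also did not pass without Rheb1-/- progenitor array 1, its highest (-0.42), or without Rheb1-/- myeloid cell array 1 or 2 (-0.61 and -0.58). Whether its probe, on mm9 chromosome 5 at 24308641 to 24308675, lies in the deleted part is unknown here, so the signal on Rheb1-/- arrays has no fixed meaning. The words without Rheb1 refer to the genotype in the labels. These are bulk samples, in which fewer cells of a type and less RNA per cell cannot be told apart.

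Most of the transcriptome differed between the stages. Of 16749 autosomal genes tested, 11505 passed limma's test at an adjusted p of 0.05 (68.7%), 4972 of them higher in Rheb1-/- myeloid cells (29.7%) and 6533 lower (39%). Over 2-fold changes that passed numbered 2758 up (16.5%) and 3114 down (18.6%), and the groups did not overlap in 73.3% of genes. The median change over all genes was -0.09. Within the slide 9280 genes passed, 3890 higher and 5390 lower, and 9066 of them were among the 11505. These shares are the background for every count below, since a list with 29.7% of its genes higher and 39% lower does what genes here did in general.

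In wild-type mice, whose arrays are separate from the Rheb1-/- ones, 13035 genes passed (77.8%), 6523 higher and 6512 lower (38.9% each), with a median change of 0.05. Both genotypes rose in 4645 genes and fell in 5805, whereas 45 genes fell without Rheb1 and rose in wild type and 14 did the reverse. A further 1833 genes rose and 693 fell in wild type without passing in Rheb1-/- cells, and 313 rose and 683 fell only past the threshold of the Rheb1-/- comparison. Across genes the changes in the 2 genotypes correlated at r = 0.916 (Spearman's rho 0.911), a description of genes that are not independent of each other. The difference between the 2 changes, tested as an interaction, passed for 1884 genes (11.2%). The change in Rheb1-/- cells was higher for 957 of them (5.71% of all genes) and lower for 927 (5.53%). These 2 shares are the background for every count of such differences below. Any difference between slides would enter the interaction, since the myeloid cells of the 2 genotypes shared no slide. Among the 1884 genes the share with a higher change was 50.8%, and it was 62.8% with quantile normalization and 63.1% in the deposited values. That count depends on single arrays, as it was 912 without Rheb1-/- progenitor array 1 and also fell by over 1.5 times without wild-type progenitor array 1 or 2 (1169 and 1160), Rheb1-/- progenitor array 2 or 3 (1083 and 1131), wild-type myeloid cell array 2 or 3 (1045 and 999) and Rheb1-/- myeloid cell array 2 or 3 (1044 and 955). Of the 53 genes whose difference is named below, 35 passed in all 12 fits with 1 array left out. The other 18, which kept their direction in each such fit and lost the call in at least 1, include Elane, Prtn3, Kit, Padi4, Lcp1, Cat, Rrm2, Mki67, Kif23, Rpl8 and Eif4a1.

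**Figure D1:**
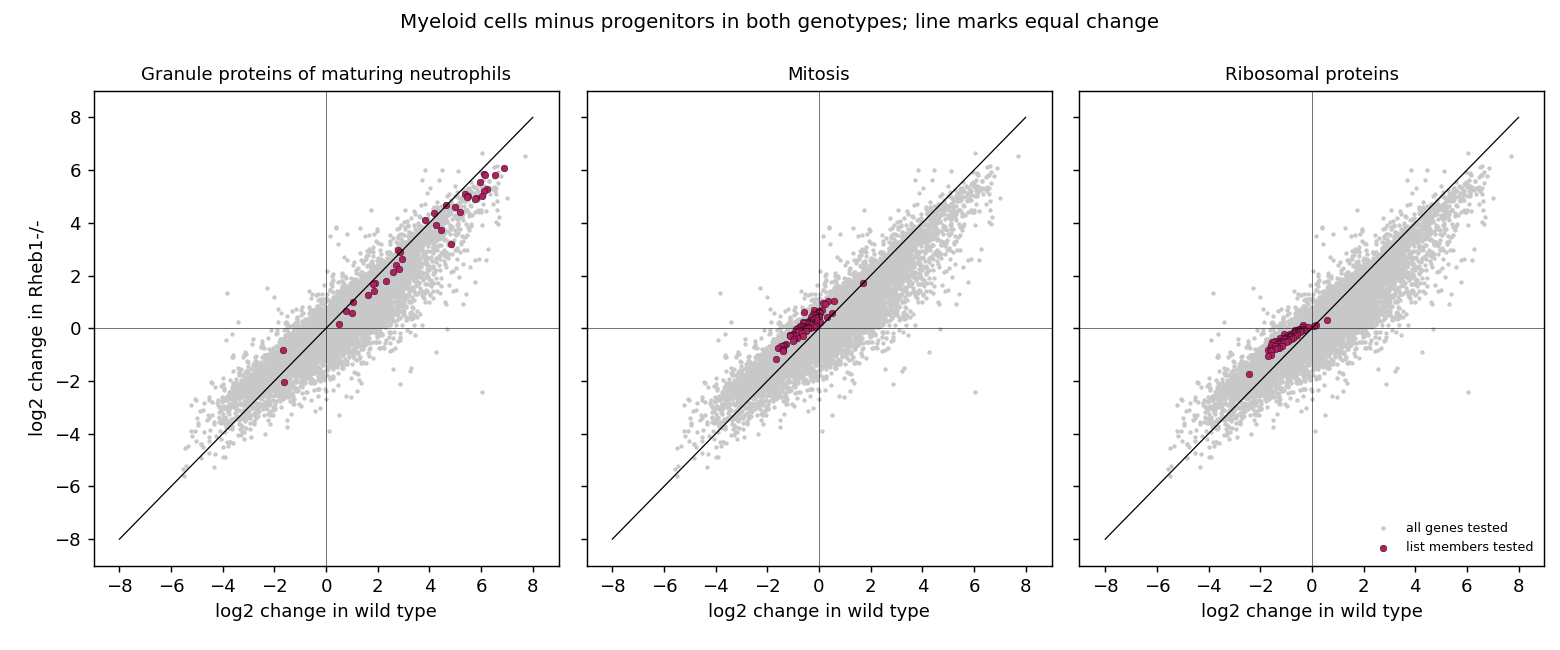
Log2 change from progenitors to myeloid cells in wild type (x axis) and in Rheb1-/- mice (y axis) for the 16749 genes tested (grey), with the members of 1 gene list coloured in each panel and a line of equal change. Secondary and tertiary granule genes lie near or below the line with medians of 4.21 and 3.82, whereas mitosis genes (-0.44 and 0.13) and ribosomal protein genes (-0.93 and -0.37) lie above it.

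The progenitor programme was switched down in Rheb1-/- myeloid cells. Of 38 stem and myeloid progenitor genes tested, 3 rose, 31 fell and 4 did not pass, and their median change was -1.78 (wild type -2.35). Cd34, the surface sialomucin by which progenitors are recognised, read 5.42, 5.38 and 5.16 on the 3 progenitor arrays and 1.64, 0.52 and 0.93 on the 3 myeloid cell arrays. The groups lay far apart, a fall of 4.28 ± 0.25 (SE, limma adjusted p = 2.61e-07), or 19.5-fold, and -4.13 within the slide. Kit, the receptor for stem cell factor, read 2.93, 3.04 and 2.94 in progenitors and 1.43, 1.29 and 1.50 in myeloid cells. Kit was lower on every myeloid cell array than on any progenitor array (-1.56 ± 0.10, limma adjusted p = 5.8e-07, within the slide -1.53). Flt3, the receptor of lymphoid and dendritic precursors, changed by -1.10, and by -0.76 within the slide, where it did not pass (limma adjusted p = 0.0693). Its wild-type change was -0.92.

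The transcription factors of the progenitor state followed. Myb, needed for progenitor expansion, fell 3.75-fold, from 5.32, 5.69 and 5.40 to 3.37, 3.84 and 3.46. Gata2, of stem and mast cell precursors, changed by -3.94 ± 0.46, Meis1, a homeobox partner of Hoxa9, by -2.59, and the costimulatory receptor gene Cd27 by -4.49. Myc, which drives ribosome production and division, read 4.20, 4.66 and 4.35 on the 3 progenitor arrays and 1.94, 2.45 and 2.54 on the 3 myeloid cell arrays, and its wild-type myeloid cell arrays read 0.33, 0.43 and 0.31. Myc fell by 2.09 ± 0.17 in Rheb1-/- cells against -3.62 in wild type, and the changes differed by 1.52 ± 0.24 (limma adjusted p = 0.00969). The falls of Kit and of the kinase gene Cdk6, which holds progenitors in cycle, were also smaller without Rheb1, by 0.67 and 0.98. Over the whole list the changes differed for 6 of 38 genes in the higher direction and 1 in the lower. The first count lay between 4 and 7 when 1 of the 12 arrays was left out, and the second between 0 and 3 when 1 of the 12 arrays was left out, moving by over 1.5 times without any array other than wild-type progenitor array 3, Rheb1-/- progenitor array 3 and wild-type myeloid cell arrays 1 and 2. Among the members that rose were Erg (0.46) and Igf1r (0.45).

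**Figure D2:**
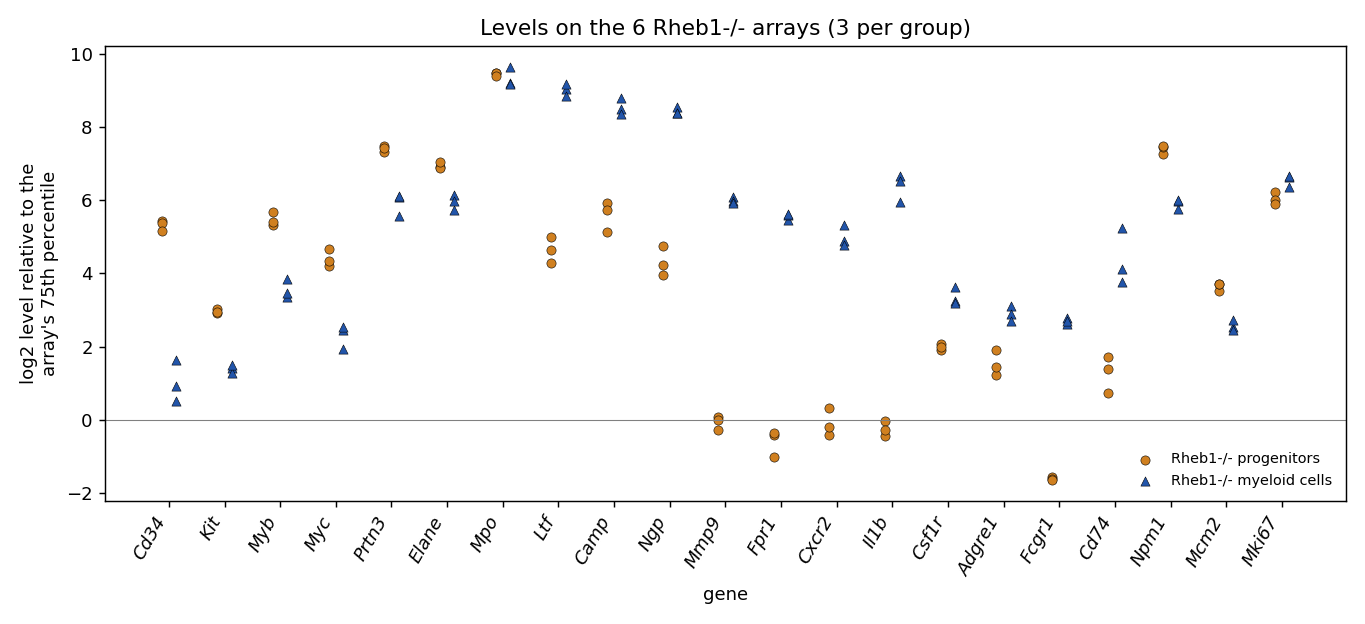
Log2 level relative to the array's 75th percentile (y axis) of 21 named genes (x axis) on the 3 Rheb1-/- progenitor arrays (circles) and the 3 Rheb1-/- myeloid cell arrays (triangles), each symbol being 1 array. Cd34, Kit, Myb and Myc lie lower in myeloid cells, Ltf, Camp, Ngp, Mmp9, Fpr1, Cxcr2 and Il1b lie higher, and the Mpo symbols overlap. Levels of different genes come from different probes and are not to be set against each other.

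Primary (azurophil) granule genes, which are transcribed at the promyelocyte stage, went down only in part. Of 18 tested, 5 rose, 11 fell and 2 did not pass, with a median of -0.66 against -1.48 in wild type. Mpo, the myeloperoxidase that makes hypochlorous acid, read 9.48, 9.47 and 9.40 on the 3 progenitor arrays and 9.21, 9.65 and 9.17 on the 3 myeloid cell arrays. The groups overlapped and the difference of -0.10 ± 0.14 did not pass (limma adjusted p = 0.523), and its wild-type change was -0.68. Elane, the gene of neutrophil elastase, read 6.90, 6.88 and 7.04 on the 3 progenitor arrays and 5.72, 6.14 and 5.99 on the 3 myeloid cell arrays, against 5.26, 4.65 and 4.61 on the wild-type myeloid cell arrays. Each Rheb1-/- myeloid cell array thus lay below each Rheb1-/- progenitor array and above each wild-type myeloid cell array.

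Elane fell by 0.99 ± 0.17 without Rheb1 and changed by -2.02 with it, a difference of 1.02 ± 0.25 (limma adjusted p = 0.0305). The other serine proteases did the same. Prtn3 (proteinase 3) changed by -1.48 against -2.83 (difference 1.35), Ctsg (cathepsin G) by -0.69 against -1.93 (difference 1.24), and Prss57 by -1.07 against -2.14 (difference 1.06). Cst7, the gene of the protease inhibitor cystatin F, changed by -1.72 against -2.98 (difference 1.26). In all, 8 of 18 members had a smaller fall or larger rise without Rheb1 by the interaction test and 0 the opposite, where 5.71% and 5.53% of all genes did. That first count lay between 4 and 8 when 1 of the 12 arrays was left out, moving by over 1.5 times without Rheb1-/- progenitor array 1, wild-type myeloid cell array 2 and Rheb1-/- myeloid cell arrays 2 and 3 in turn. The members that rose included Ctsc, which activates the serine proteases (1.49), and the lysozyme gene Lyz2 (1.30), a gene of both neutrophils and macrophages. Another probe of Lyz2, above background on all 6 arrays, gave a larger rise of 4.39.

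Secondary and tertiary granule genes of neutrophils rose almost throughout. Of 38 tested, 35 rose, 2 fell and 1 did not pass, where 29.7% of all genes rose, and the median change was 3.82 against 4.21 in wild type. Ltf, the gene of the iron-binding protein lactoferrin, read 4.99, 4.63 and 4.29 on the 3 progenitor arrays and 9.03, 9.18 and 8.85 on the 3 myeloid cell arrays. The groups did not overlap, and Ltf rose by 4.39 ± 0.26 (SE, limma adjusted p = 3.08e-07), or 20.9-fold, and by 4.73 within the slide. Camp, whose product is the antimicrobial cathelicidin, read 5.93, 5.13 and 5.73 in progenitors and 8.50, 8.79 and 8.35 in myeloid cells, and it rose 7.7-fold. Ngp (neutrophilic granule protein) rose 17.4-fold and Lcn2, the gene of the siderophore trap lipocalin 2, rose 24.2-fold.

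Metalloproteases of these granules also rose. Mmp9 (gelatinase B) read 0.08, 0.00 and -0.28 on the 3 progenitor arrays and 6.09, 5.99 and 5.93 on the 3 myeloid cell arrays, a rise of 6.07 ± 0.19 (67-fold, limma adjusted p = 2.92e-08). Mmp8, the neutrophil collagenase gene, rose 46.8-fold, and Adam8, a membrane metalloprotease of leukocytes, 25.5-fold, from 3.09, 2.54 and 2.46 to 7.41, 7.37 and 7.33. Padi4, whose enzyme citrullinates histones during the release of chromatin traps, rose by 3.71, less than its 4.44 in wild type (difference -0.74, limma adjusted p = 0.0442). Padi4 was the only member with a lower change by the interaction test, and B4galt6, which fell by 0.81, was the only one with a higher change (0.85). The other member that fell was Ldhc (-2.04). For the rest no difference between the genotypes was detectable with 3 arrays per group, and the differences of Ltf, Camp, Mmp8 and Mmp9 were 0.22 ± 0.37, 0.16 ± 0.58, -0.41 ± 0.35 and -0.81 ± 0.27. The count of members with a higher change lay between 0 and 1 when 1 of the 12 arrays was left out, moving by over 1.5 times without any array other than wild-type progenitor arrays 1 and 2, wild-type myeloid cell array 1 and Rheb1-/- myeloid cell array 1. The count with a lower change lay between 0 and 7 when 1 of the 12 arrays was left out, moving by over 1.5 times in every such fit.

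The promoters of this group were searched for C/EBP-like letters, since C/EBP factors are transcription factors of granule gene expression, and their sites contain the letters TTGCNNAA or close relatives. Of the 38 genes, 31 had a promoter in the RefSeq table by symbol, taken as 250 bases before to 50 after the start (GRCm38.p6, first promoter listed per gene, both strands searched), and 9 of them (29%) held the motif. Its share was 8.64% over the 10948 tested genes with a promoter and 10.8% over all 27025 promoters. Matches to different motifs named here may share bases, and a match in these letters is a description and not a binding site. Carriers on some chromosomes were left out of the choice of promoters to print. Of the rest, the 250 bases before the start of the 2 carriers with the smallest p in the Rheb1-/- comparison, a choice made after their values were seen, are shown 5′ to 3′ with the motif in capitals.
Adam8 (chr7:139992563-139992812, minus strand): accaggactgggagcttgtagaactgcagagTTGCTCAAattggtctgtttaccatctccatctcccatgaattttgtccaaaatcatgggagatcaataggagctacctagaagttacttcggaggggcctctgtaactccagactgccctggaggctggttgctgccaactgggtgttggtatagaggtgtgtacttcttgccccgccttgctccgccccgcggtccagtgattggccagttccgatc
Mmp8 (chr9:7558179-7558428, plus strand): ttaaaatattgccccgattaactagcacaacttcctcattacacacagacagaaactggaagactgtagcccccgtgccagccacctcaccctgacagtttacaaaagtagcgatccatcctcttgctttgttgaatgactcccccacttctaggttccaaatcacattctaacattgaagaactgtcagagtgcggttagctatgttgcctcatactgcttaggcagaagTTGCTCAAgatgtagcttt

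Receptors and surface genes of mature neutrophils rose in 47 of 48 members and fell in 0, with a median of 3.36 (wild type 3.66), and the same number rose within the slide. The formyl peptide receptor gene Fpr1, which senses bacterial peptides, read -0.40, -0.35 and -1.02 on the 3 progenitor arrays and 5.46, 5.61 and 5.62 on the 3 myeloid cell arrays. Its rise of 6.15 ± 0.23 was 71.1-fold (limma adjusted p = 4.56e-08), and its relative Fpr2 rose 47.5-fold. Cxcr2, the chemokine receptor that releases neutrophils from marrow, read 0.33, -0.41 and -0.20 in progenitors and 4.90, 4.77 and 5.31 in myeloid cells and rose 34-fold. Csf3r, the receptor for G-CSF, rose by 2.14 and Retnlg, a resistin-like protein gene of neutrophils, by 4.53. Mxd1, an antagonist of MYC made as granulocytes stop dividing, rose 19.8-fold, from 1.37, 1.20 and 1.28 to 5.73, 5.56 and 5.48. By the interaction test 5 members rose less without Rheb1 and 0 more, and the former count lay between 0 and 15 when 1 of the 12 arrays was left out, moving by over 1.5 times without any array other than Rheb1-/- myeloid cell array 1. Fpr1, Fpr2, Cxcr2 and Csf3r had differences of -0.45, -0.75, -0.77 and -0.84, none past the threshold.

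Chemotactic receptors and chemokines rose in 29 of 40 genes and fell in 3. Among them Ccr2, which calls monocytes to CCL2, rose by 1.98 (wild type 2.21), and Pf4, the platelet chemokine, fell by 3.35. The chemokine Cxcl12, not above background on any Rheb1-/- progenitor array, was at least 11.5-fold higher. Several of the largest rises of single genes were inflammatory genes. Il1b, the gene of interleukin 1 beta, read -0.03, -0.45 and -0.28 on the 3 progenitor arrays and 6.65, 5.96 and 6.53 on the 3 myeloid cell arrays, a 99.2-fold rise (6.63 ± 0.29, limma adjusted p = 7.17e-08). Prok2, the gene of the neutrophil chemoattractant Bv8, rose 68.9-fold, Acod1, which makes itaconate, 63.6-fold, Arg2 (arginase 2) 57.8-fold, Asprv1, an aspartic protease gene, 56.7-fold, Ceacam10 56.7-fold, Slfn1 60.7-fold, Scrg1 55.8-fold, the transcription factor gene Snai1 63.3-fold and the GTPase gene Rhoc 58.9-fold. Gad1, which makes GABA in neurons, was not above background on the progenitor arrays and at least 34.9-fold higher in myeloid cells by 1 probe, but another of its probes, above background on 4 of the 6 arrays, gave 1.45. Syn2 and Krtap21-1 were above background on 1 of 3 progenitor arrays and rose by 5.93 and 5.78. Members of near-identical families, such as the Fpr, Clec4a, globin, Schlafen and MHC genes, may share probe signal, which was not tested.

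Monocyte and macrophage differentiation genes rose too. Of 63 tested, 55 rose, 1 fell and 7 did not pass, with a median of 2.09 (wild type 2.58). Csf1r, the receptor for the macrophage growth factor M-CSF, read 2.07, 1.91 and 1.98 on the 3 progenitor arrays and 3.63, 3.26 and 3.18 on the 3 myeloid cell arrays. It was higher on every myeloid cell array, by 1.37 ± 0.12 (limma adjusted p = 3.82e-06, within the slide 1.37), against 1.60 in wild type. Adgre1, which encodes the macrophage marker F4/80, read 1.90, 1.23 and 1.45 in progenitors and 3.11, 2.90 and 2.71 in myeloid cells and rose by 1.38 (wild type 1.36).

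Slc11a1, the phagosomal metal transporter NRAMP1, rose 37-fold, and the lectin gene Clec4a3 30.3-fold. Clec4a1 was at least 5.4-fold and the dendritic lectin gene Cd209a at least 2.11-fold higher, both being below background on all progenitor arrays. Cd209a was above background on only 1 of the 3 myeloid cell arrays, so its bound rests on a mean that includes dim arrays. Ly6c2, a marker of inflammatory monocytes, read 8.65, 8.48 and 8.53 in progenitors and 8.59, 8.71 and 8.55 in myeloid cells, and its difference of 0.07 did not pass. By the interaction test 1 of 63 members changed more and 3 less without Rheb1, and neither share exceeds that of all genes (5.71% and 5.53%). The former count was 4 without Rheb1-/- progenitor array 1 and 2 without Rheb1-/- myeloid cell array 2, and the latter was 7 with normexp background correction and lay between 3 and 7 when 1 of the 12 arrays was left out, moving by over 1.5 times without wild-type progenitor array 3 and Rheb1-/- myeloid cell array 1 in turn. Among the members that changed less was Cd5l, made by tissue macrophages to hold back their death, which read -1.22, -0.53 and -0.99 on the 3 progenitor arrays and -1.09, -2.09 and -1.88 on the 3 myeloid cell arrays and 0.72, 1.06 and 1.19 on wild-type myeloid cell arrays. Cd5l fell by 0.77 without Rheb1 (not past the threshold within the slide, limma adjusted p = 0.173, nor without Rheb1-/- progenitor array 2 or Rheb1-/- myeloid cell array 2 or 3, at -0.58, -0.57 and -0.68) and changed by 1.67 in wild type, a difference of -2.44 ± 0.36 (limma adjusted p = 0.00915). Cd68, a lysosomal glycoprotein of macrophages, rose by 1.74 against 2.45 (difference -0.71).

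The tools of phagocytosis rose as well. Of 58 phagocytic receptors and opsonins 44 rose, 4 fell and 10 did not pass (median 1.79, wild type 2.24). Fcgr1, the high-affinity receptor for IgG, read -1.56, -1.61 and -1.64 on the 3 progenitor arrays and 2.77, 2.61 and 2.71 on the 3 myeloid cell arrays, a 19.7-fold rise, where the wild-type change of 4.41 differed by -0.10 ± 0.29 and did not pass. The fungal beta-glucan receptor Clec7a rose by 2.81, the mycobacterial lectins Clec4e and Clec4d by 3.47 and 3.98, and Fcgr3 by 0.97. The inhibitory Fc receptor gene Fcgr2b read 3.03, 2.90 and 2.90 in progenitors and 2.95, 3.00 and 3.20 in myeloid cells and did not pass. The members that fell were Mfge8, which bridges dying cells to phagocytes (-1.63), Stab1 (-1.08), Scarf1 (-0.97) and Cd93 (-0.89).

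Of 65 actin and phagocytic cup genes 59 rose, 2 fell and 4 did not pass (median 1.04, wild type 1.23). They included the leukocyte actin binder Lsp1 (4.07), the capping protein Capg (2.69), the Src-family kinase Lyn (2.02) and the actin bundler Lcp1 (1.67). Lcp1 rose less than in wild type (2.17, difference -0.50), and 3 further members had lower changes by the interaction test. These were 4 of 65 members, close to the 5.53% of all genes with a lower change. This count of 4 was 11 with quantile normalization and 9 in the deposited values, and lay between 1 and 5 when 1 of the 12 arrays was left out, moving by over 1.5 times without any array other than wild-type progenitor array 3, Rheb1-/- progenitor array 2, wild-type myeloid cell arrays 1 and 2 and Rheb1-/- myeloid cell array 1. Src itself was not above background on any myeloid cell array and read -3.0, -3.06 and -4.86 on the progenitor arrays, the third being the lowest (within the slide -0.53), and another of its probes, above background on 3 of the 6 arrays, gave 0.49. Its call was lost without Rheb1-/- progenitor array 1 or 2 (fitted changes of -1.43 and -1.46). Among 25 NADPH oxidase and microbicidal enzyme genes 17 rose, 5 fell and 3 did not pass. The oxidase subunits Ncf1 and Cyba rose by 1.79 and 1.58, whereas the antioxidant genes Cat (catalase, -0.83), Sod2 (-1.21), Prdx1 (-0.88) and Prdx2 (-1.01) fell. Cat changed by 0.10 in wild type, and the difference of -0.94 ± 0.20 passed (limma adjusted p = 0.0211). The catalytic subunit gene Cybb is on the X chromosome and was left out by the restriction to autosomes.

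Pattern receptors and their signalling genes rose in 36 of 48 and fell in 4. Tlr2, the receptor for bacterial lipoproteins, rose by 3.02, Tlr4, the receptor for endotoxin, by 1.16 and the inflammasome gene Nlrp3 by 1.52. Interferon response genes rose in 47 of 67 and fell in 8 (median 1.46, wild type 1.80). Ifit3 read -4.47, -4.51 and -3.88 in progenitors and 1.82, 0.53 and 1.45 in myeloid cells and rose 46.9-fold, Irf7, the factor that amplifies the response, 18.6-fold, and Mx1 and Isg15 by 3.07 and 2.59. Bst2 (-0.91) and Gbp3 (-1.15) were among the members that fell. Genes of MHC class II presentation rose in 15 of 18 and fell in 2, with Cd74, the invariant chain, at 1.72, 1.40 and 0.74 in progenitors and 5.23, 3.77 and 4.13 in myeloid cells. The 3 myeloid cell arrays differed for Cd74, with a spread of 0.76 (SD, n = 3), but the rise of 3.09 ± 0.40 passed (limma adjusted p = 6.02e-05). H2-Aa and H2-Ab1, the class II chains, rose by 2.63 and 2.04, and no member of the list had a change that passed the interaction test. B cell and dendritic cell markers, given below, moved with them, and their part in this rise was not tested.

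**Figure D3:**
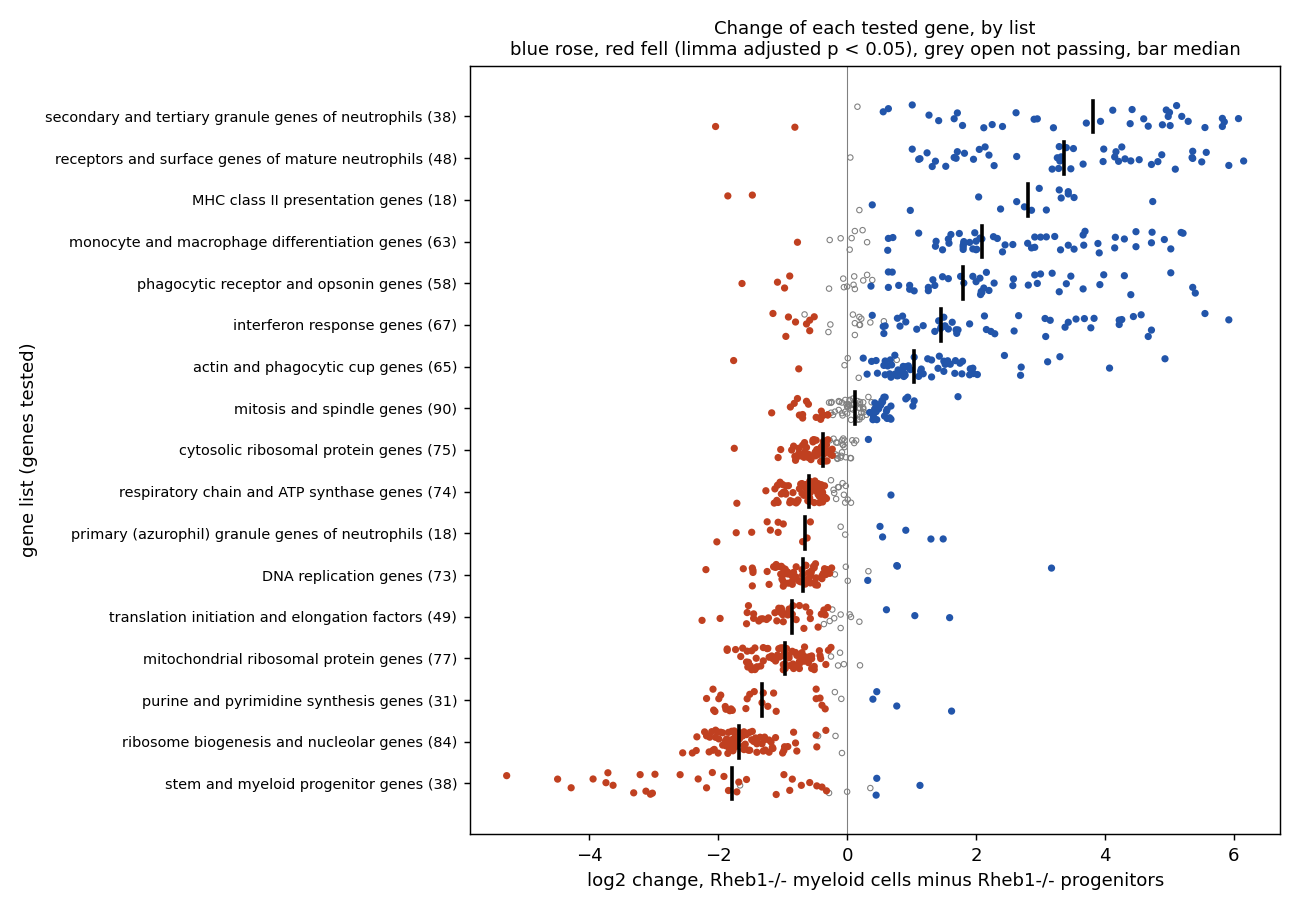
Log2 change between Rheb1-/- progenitors and Rheb1-/- myeloid cells (x axis) of each tested gene in 17 lists (y axis, number of genes in brackets). Blue points rose and red points fell by limma's adjusted p, grey open points did not pass, and the black bar is the list's median, which runs from 3.82 for secondary and tertiary granule genes through 0.13 for mitosis genes to -1.78 for progenitor genes.

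Transcription factors of myeloid fate split, 35 of 62 rising and 16 falling. Spi1, which encodes PU.1, the factor of both myeloid paths, read 0.46, 0.46 and 0.28 on the 3 progenitor arrays and 1.41, 1.31 and 1.69 on the 3 myeloid cell arrays and rose by 1.07 ± 0.16 (wild type 1.13). Cebpa, needed to form granulocyte and monocyte progenitors, fell by 1.12 (wild type -1.13), Gfi1, a transcriptional repressor that granulocytes need, by 1.03 (wild type -1.49), and Irf8, of monocyte and dendritic fate, by 0.64 (wild type -0.83). None of these 4 changes passed the interaction test. The AP-1 genes Fosl2 and Junb rose by 3.60 and 2.67, and Irf5 and Rxra by 2.42 and 2.12. Growth factor receptors and their signalling genes rose in 33 of 50 and fell in 11. Csf2ra and Csf2rb, the chains of the GM-CSF receptor, rose by 0.93 and 1.24. Grb10, an adaptor that mTORC1 phosphorylates and that restrains insulin signalling, read 0.50, 0.66 and 0.54 on the 3 progenitor arrays and -2.37, -2.17 and -1.92 on the 3 myeloid cell arrays and -4.01, -4.15 and -3.90 on wild-type myeloid cell arrays. It fell by 2.72 without Rheb1 against -4.52 in wild type (difference 1.79 ± 0.17, limma adjusted p = 0.00366).

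The machinery of protein synthesis went down without Rheb1, and part of these genes went down less than in wild type. Ribosome biogenesis and nucleolar genes fell in 81 of 84 and rose in 0, where 39% of all genes fell, with a median of -1.67 against -2.08 in wild type. Npm1 (nucleophosmin), a nucleolar chaperone, read 7.26, 7.45 and 7.48 on the 3 progenitor arrays and 5.75, 5.99 and 6.0 on the 3 myeloid cell arrays, against 4.73, 4.83 and 4.61 on wild-type myeloid cell arrays. The Rheb1-/- myeloid cells thus lay between the progenitors and the wild-type myeloid cells. Npm1 fell by 1.48 ± 0.10 (limma adjusted p = 7.88e-07) against -2.41, a difference of 0.93 ± 0.15 (limma adjusted p = 0.00977). Nop58 and Fbl, core proteins of the small nucleolar RNPs that modify ribosomal RNA, fell by 2.10 and 1.79 (differences 1.02 and 0.54), Ppan by 2.14 (difference 0.97) and Ncl (nucleolin) by 1.75. In 23 members the fall was smaller without Rheb1 by the interaction test, and in 0 larger. The first count lay between 10 and 25 when 1 of the 12 arrays was left out, moving by over 1.5 times without any array other than wild-type progenitor array 3, Rheb1-/- progenitor array 2, wild-type myeloid cell array 1 and Rheb1-/- myeloid cell array 1. Over the settings that kept all 12 arrays, which include a 2-fold minimum and no filter on dim probes, it lay between 4 and 32.

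Cytosolic ribosomal protein genes fell by little. Of 75 tested, 1 rose, 48 fell and 26 did not pass, with a median of -0.37, where in wild type 70 fell and the median was -0.93. Within the slide 31 fell (median -0.39), and the fall passed in 35 to 55 members with 1 array left out. Rpl31, of the large subunit, read 3.24, 3.26 and 3.39 on the 3 progenitor arrays and 2.25, 2.53 and 2.53 on the 3 myeloid cell arrays, and 1.56, 1.55 and 1.45 on wild-type myeloid cell arrays. It changed by -0.86 ± 0.09 against -1.59 (difference 0.73 ± 0.13, limma adjusted p = 0.0128). Rpl8 changed by -0.75 against -1.27 (difference 0.52). Rpl21, the member that rose, did so by 0.33, and this was not past the threshold without Rheb1-/- progenitor array 2 or 3 (0.33 and 0.30) or Rheb1-/- myeloid cell array 2 (0.21), while the mean of its probes fell by 0.26. The mean level of the list was 7.96 to 8.01 over the progenitor arrays, 7.49 to 7.76 over the Rheb1-/- myeloid cell arrays and 6.79 to 6.93 over the wild-type myeloid cell arrays. The changes differed in 33 members, with 0 in the opposite direction, and this count lay between 17 and 36 when 1 of the 12 arrays was left out, moving by over 1.5 times without any array other than wild-type progenitor arrays 1 and 3, wild-type myeloid cell arrays 1 and 2 and Rheb1-/- myeloid cell array 1. Over the settings that kept all 12 arrays, which include a 2-fold minimum and no filter on dim probes, it lay between 1 and 50. Ribosomal protein genes have many processed pseudogenes, so single probes may read relatives.

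Translation factors fell in 37 of 49 and rose in 3 (median -0.85, wild type -1.22). Eif4a1, the helicase that opens the 5′ ends of mRNAs, fell by 1.04 (difference 0.66), Eif3b by 1.53 (difference 0.76) and Eef1e1 by 1.97 (difference 0.60). Eif4ebp1, which encodes the translation repressor that mTORC1 phosphorylates, rose by 1.05 (wild type 0.97), from 4.71, 4.73 and 4.73 to 5.69, 5.90 and 5.74. Another probe of Eif4ebp1, above background on all 6 arrays, gave a smaller rise of 0.40. Of 49 tRNA synthetase, amino acid supply and ATF4 target genes 9 rose, 34 fell and 6 did not pass. The glutamyl-prolyl-tRNA synthetase gene Eprs fell by 1.92, and Phgdh and Psat1, of serine synthesis, by 2.44 and 1.71. The cystine transporter gene Slc7a11 rose by 4.02 (1.59 by another probe) and Sesn2, whose product senses leucine and inhibits mTORC1, by 2.94. Atf4 itself read 2.89, 2.60 and 3.06 in progenitors and 2.90, 2.90 and 3.02 in myeloid cells and did not pass, whereas it changed by -0.90 in wild type (difference 0.99 ± 0.17, limma adjusted p = 0.0113).

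Genes of nucleotide synthesis, a process that mTORC1 stimulates, fell in 25 of 31 and rose in 4 (median -1.32, wild type -1.89). Cad, the enzyme of the first steps of pyrimidine synthesis, read 3.63, 3.66 and 3.55 on the 3 progenitor arrays and 1.40, 1.43 and 1.47 on the 3 myeloid cell arrays. It fell 4.54-fold, and the wild-type change of -3.09 was larger (difference 0.91 ± 0.14, limma adjusted p = 0.00977). Ctps and Ppat, of CTP and purine synthesis, fell by 1.99 and 1.82 (differences 0.87 and 0.77). Mitochondrial ribosomal protein genes fell in 72 of 77 (median -0.96, wild type -1.12) and respiratory chain genes in 61 of 74 (-0.59, wild type -0.62). Proteasome genes fell in 37 of 43 and core spliceosome genes in 45 of 50, and in these 4 lists 0, 1, 0 and 0 members rose. Examples were Mrpl12 (-1.86), the cytochrome c gene Cycs (-1.13), the ATP synthase subunit Atp5a1 (-0.97), Psma5 (-1.09) and the splicing factor Srsf7 (-1.05).

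**Figure D4:**
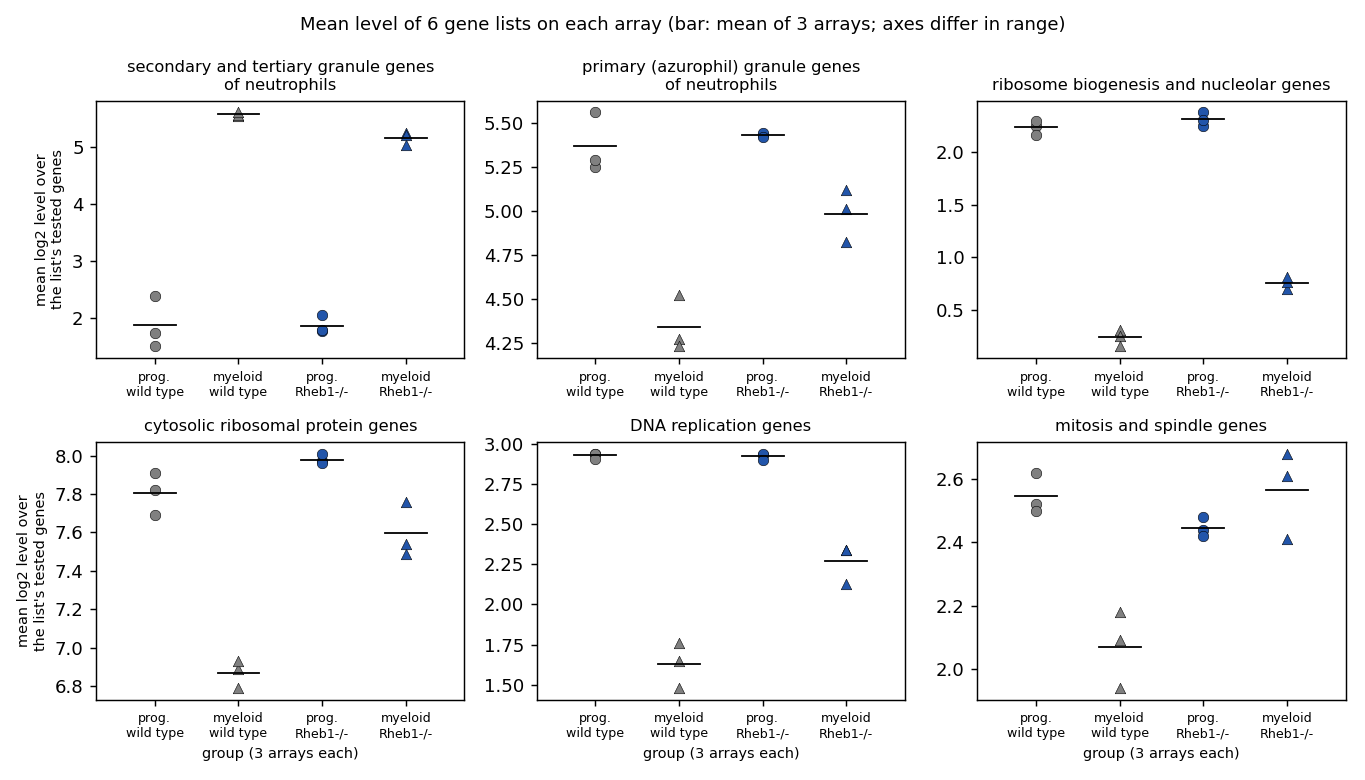
Mean log2 level over the tested genes of 6 lists (y axes, which differ in range) on each of the 12 progenitor and myeloid cell arrays, by group (x axes), with wild type in grey, Rheb1-/- in blue and a bar at the mean of 3 arrays. In DNA replication genes the Rheb1-/- myeloid cell arrays (2.13 to 2.34) lie below their progenitors (2.90 to 2.94) and above the wild-type myeloid cells (1.48 to 1.76), and in mitosis genes (2.41 to 2.68) they overlap their progenitors (2.42 to 2.48).

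Cell cycle genes changed differently without Rheb1 and with it. DNA replication genes fell in 64 of 73 and rose in 4, with a median of -0.69 against -1.36 in wild type. Mcm2, of the helicase that unwinds origins, read 3.51, 3.70 and 3.72 on the 3 progenitor arrays and 2.53, 2.73 and 2.45 on the 3 myeloid cell arrays, and 1.88, 1.86 and 1.67 on wild-type myeloid cell arrays. It fell by 1.07 ± 0.10 (limma adjusted p = 5.59e-06) against -1.77 (difference 0.70 ± 0.14, limma adjusted p = 0.0178). Ung, which removes uracil from DNA, fell by 2.19 (difference 0.85). Rrm2, the inducible subunit of ribonucleotide reductase, went the other way, from 2.69, 2.81 and 2.60 to 3.27, 3.60 and 3.55, a rise of 0.77 ± 0.18 where wild type changed by -0.24 (difference 1.01 ± 0.25, limma adjusted p = 0.0346). In 47 of 73 members the change was higher without Rheb1 by the interaction test, where 5.71% of all genes were, and in 0 lower. The count was 49 with quantile normalization and lay between 22 and 51 when 1 of the 12 arrays was left out, moving by over 1.5 times without any array other than wild-type progenitor array 3, wild-type myeloid cell array 1 and Rheb1-/- myeloid cell array 1. Over the settings that kept all 12 arrays, which include a 2-fold minimum and no filter on dim probes, it lay between 5 and 53.

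Mitosis and spindle genes did not fall as a group in Rheb1-/- cells. Of 90 tested, 27 rose, 16 fell and 47 did not pass (median 0.13), against 29.7% of all genes rising and 39% falling, whereas in wild type 4 rose and 53 fell (median -0.44). Within the slide 19 rose and 9 fell. Mki67, whose product Ki-67 coats mitotic chromosomes, read 6.22, 6.0 and 5.89 on the 3 progenitor arrays and 6.37, 6.63 and 6.67 on the 3 myeloid cell arrays, and 5.73, 5.94 and 5.85 on wild-type myeloid cell arrays. It rose by 0.52 ± 0.13 (limma adjusted p = 0.00456), where wild type changed by -0.20, a difference of 0.72 ± 0.18 (limma adjusted p = 0.0362). Kif23, a kinesin of cytokinesis, rose by 0.66 against 0.01 (difference 0.65). The mitotic kinase gene Cdk1 read 1.47, 1.58 and 1.31 in progenitors and 1.27, 1.50 and 1.60 in myeloid cells and did not pass, its wild-type change being -0.81 and the difference of 0.82 not passing either (limma adjusted p = 0.0998). Zwint and Cks1b, of the kinetochore and of CDK complexes, fell by 1.17 and 0.77. By the interaction test 40 of 90 members had a higher change without Rheb1 and 0 a lower one. The count was 45 with quantile normalization and lay between 16 and 50 when 1 of the 12 arrays was left out, moving by over 1.5 times without any array other than wild-type myeloid cell array 1 and Rheb1-/- myeloid cell array 1. Over the settings that kept all 12 arrays, which include a 2-fold minimum and no filter on dim probes, it lay between 1 and 54. Among the 12 arrays the mean level of the list was 2.50 to 2.62 in wild-type progenitors and 1.94 to 2.18 in wild-type myeloid cells.

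The promoters of these lists were searched for the letters by which cell cycle factors are known. E2F factors switch on replication genes and bind sites holding TTCCCGC or TTGGCGC, and the DREAM complex holds mitotic genes silent through the cell cycle homology region (CHR), with the letters TTTGAA, often near CCAAT letters bound by NF-Y. E2F letters occurred in 32 of 56 replication promoters found (57.1%), against 11.4% of tested genes and 6.93% of all promoters. CHR letters occurred in 43 of 72 mitosis promoters (59.7%), against 12.6% and 18.1%, and CCAAT in 75% of them against 38.6% and 37.9%. Replication promoters held CHR letters in 14.3% and secondary granule promoters held E2F letters in 3.23%. Of ribosomal protein promoters (54 of 75 found) 14.8% held E2F letters and 7.41% CHR letters.

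Carriers on some chromosomes were left out of the choice of promoters to print. Of the rest, the 2 carriers of each motif with the smallest p of the interaction are shown, chosen after their values were seen. They are given as 250 bases before the start, 5′ to 3′ on the gene's strand (RefSeq, GRCm38.p6), with CHR letters in capitals for the first pair and E2F letters for the second.
Ect2 (chr3:27153879-27154128, minus strand): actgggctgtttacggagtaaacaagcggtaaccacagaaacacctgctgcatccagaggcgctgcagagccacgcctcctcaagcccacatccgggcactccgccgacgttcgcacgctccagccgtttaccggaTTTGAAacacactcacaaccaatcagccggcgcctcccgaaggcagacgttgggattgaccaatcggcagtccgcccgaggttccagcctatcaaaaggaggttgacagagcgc
Cdca5 (chr19:6084847-6085096, plus strand): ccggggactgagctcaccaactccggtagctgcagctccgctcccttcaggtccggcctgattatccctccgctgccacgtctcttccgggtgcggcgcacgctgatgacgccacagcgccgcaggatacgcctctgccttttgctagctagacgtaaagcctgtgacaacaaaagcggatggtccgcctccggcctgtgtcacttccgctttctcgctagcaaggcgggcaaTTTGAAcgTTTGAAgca
Dtl (chr1:191575545-191575794, minus strand): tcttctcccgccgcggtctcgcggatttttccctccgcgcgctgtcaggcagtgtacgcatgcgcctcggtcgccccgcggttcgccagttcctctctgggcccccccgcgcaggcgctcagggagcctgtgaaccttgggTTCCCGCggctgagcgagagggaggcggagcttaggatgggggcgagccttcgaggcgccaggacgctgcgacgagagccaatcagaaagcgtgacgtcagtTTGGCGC
Uhrf1 (chr17:56303087-56303336, plus strand): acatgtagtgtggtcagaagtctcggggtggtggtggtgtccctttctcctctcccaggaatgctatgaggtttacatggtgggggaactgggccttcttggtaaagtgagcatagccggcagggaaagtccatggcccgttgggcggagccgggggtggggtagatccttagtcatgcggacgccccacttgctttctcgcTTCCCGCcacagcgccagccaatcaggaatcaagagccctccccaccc

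Ect2, which drives cleavage furrow formation, read 2.11, 2.13 and 2.06 in progenitors and 1.82, 1.99 and 2.10 in myeloid cells, and 1.33, 1.23 and 1.17 on wild-type myeloid cell arrays. Ect2 changed by -0.13 without Rheb1 and -0.92 with it (difference 0.79 ± 0.12, limma adjusted p = 0.00973), and the first of these did not pass. Cdca5 (sororin), which holds sister chromatids together, changed by -0.28, which did not pass, against -1.11 (difference 0.83). Dtl, part of the ligase that destroys the licensing factor CDT1, read 2.29, 2.22 and 2.48 in progenitors and 1.27, 1.35 and 1.47 in myeloid cells and 0.35, 0.25 and 0.25 on wild-type myeloid cell arrays. Dtl changed by -0.96 without Rheb1 and -2.06 with it (difference 1.09 ± 0.12, limma adjusted p = 0.004), and Uhrf1 changed by -0.56 without Rheb1 and -1.21 with it (difference 0.65 ± 0.10, limma adjusted p = 0.00969), UHRF1 being the protein that carries DNA methylation through replication. In these 4 genes the Rheb1-/- myeloid cell arrays all lay above the wild-type ones. As the genes were chosen by the p of the interaction, such a separation follows largely from the choice.

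Of 37 G1 cyclins, CDKs and CDK inhibitors 20 rose, 11 fell and 6 did not pass. The inhibitor genes Cdkn1b (p27) and Cdkn2c (p18) rose by 1.84 and 1.41 (wild type 2.05 and 0.75), and the D cyclins moved apart, Ccnd3 rising by 2.16 and Ccnd2 falling by 2.44. Cdkn1a, the gene of the p53-induced inhibitor p21, read -0.64, -0.99 and -0.64 on the 3 progenitor arrays and 1.39, 1.33 and 0.99 on the 3 myeloid cell arrays, and -0.33, -0.50 and -0.87 on wild-type myeloid cell arrays. It rose by 1.99 ± 0.17 without Rheb1 and changed by 0.23 with it (difference 1.76 ± 0.24, limma adjusted p = 0.00902). The antiproliferative gene Btg1 rose by 2.69, close to the 2.53 of wild type (difference 0.16 ± 0.22).

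Among the mTOR pathway's own genes there was no common direction, 30 of 66 rising and 25 falling (median 0.06). Mtor read -0.80, -0.71 and -0.63 in progenitors and -0.99, -1.36 and -1.04 in myeloid cells, and its difference of -0.41 did not pass. Rptor, the mTORC1 scaffold, fell by 1.06 (wild type -0.86), Mlst8 rose by 1.48, and Prr5l, a partner of mTORC2, rose 35.7-fold. The other Rptor probes above background on all 6 arrays disagreed, at -1.01 and -0.12. Rheb and Grb10 are members given above. Autophagy genes rose in 24 of 43 and fell in 7 (median 0.48, wild type 0.64). Ulk1, the kinase that starts autophagy and is held off by mTORC1, read 3.02, 2.92 and 2.98 on the 3 progenitor arrays and 4.34, 4.30 and 4.44 on the 3 myeloid cell arrays, a rise of 1.38 ± 0.08 against 1.43 in wild type. The receptor genes Optn and Sqstm1 rose by 2.77 and 0.59, and the ATG8 family gene Gabarapl1 fell by 1.92. Lysosome genes rose in 37 of 70 and fell in 15 (median 0.30, wild type 0.39). The cathepsin genes Ctss, Ctsd and Ctsb rose by 2.86, 1.13 and 0.64, the membrane protein gene Lamp1 by 0.45 (within the slide 0.29, not passing, limma adjusted p = 0.177), and the acid alpha-glucosidase gene Gaa fell by 1.60.

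FoxO factors and their targets rose in 22 of 35 and fell in 8. Foxo3 rose by 1.72 (wild type 1.17), the p53-inducible Trp53inp1 by 3.93 and the arrestin Txnip, which limits glucose uptake, by 1.87, less than in wild type (difference -0.71). Glycolysis and HIF1 target genes split, 16 of 41 up and 14 down (within the slide 11 and 9). The glucose transporters Slc2a3 and Slc2a6 rose by 4.24 and 3.67, and Slc2a1 by 1.43 (wild type 0.88), though another probe of Slc2a3, above background on 3 of the 6 arrays, gave -0.45. The lactate transporters moved apart, Slc16a3 rising by 3.49 and Slc16a1 falling by 1.74 (difference 0.95). Triacylglycerol and lipid droplet genes also split, 13 and 12 of 34. Gpat3 and Dgat1, of triacylglycerol synthesis, rose by 5.48 and 2.90, the droplet protein gene Plin5 by 3.91 and G0s2, an inhibitor of lipolysis, by 3.66. Of 37 sterol and fatty acid synthesis genes 6 rose, 19 fell and 12 did not pass. Fasn (fatty acid synthase) fell by 2.17.

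Of 31 BCL2 family and survival genes 14 rose, 9 fell and 8 did not pass. The neutrophil survival gene Mcl1 read 5.02, 4.82 and 4.69 in progenitors and 6.51, 6.63 and 6.52 in myeloid cells and rose by 1.71 (wild type 1.69), the death receptor Fas and the BH3-only gene Bmf rose by 3.47 and 3.64 (Bmf 0.86 by another probe), and Bcl2 fell by 1.83 (wild type -2.33). Immediate early, heat shock and chaperone genes had no common direction, 17 of 56 rising and 27 falling. Of the chaperones of the endoplasmic reticulum and mitochondria, Hspa5 (BiP) fell by 1.51, Calr (calreticulin) by 2.02 and Hspd1 by 2.13. Fosl1, an immediate early gene and AP-1 subunit, read -4.48, -5.73 and -3.93 on the 3 progenitor arrays and -1.13, -1.41 and -1.07 on the 3 myeloid cell arrays, and -4.28, -4.42 and -4.15 on wild-type myeloid cell arrays. It rose 11.4-fold without Rheb1 and changed by 0.14 in wild type (difference 3.37 ± 0.50, limma adjusted p = 0.0091). Atf3, a stress-induced repressor, rose by 3.21 against 0.44 (difference 2.76 ± 0.38). Jun and the small Maf gene Maff did not pass in Rheb1-/- cells (-0.05 and 0.25) and changed by -2.13 and -3.41 in wild type (differences 2.07 and 3.66). Fos rose by 1.81, and its difference of 1.22 did not pass. In 14 members of the list the change was higher without Rheb1 and in 0 lower, and the first count lay between 8 and 15 when 1 of the 12 arrays was left out, moving by over 1.5 times without wild-type progenitor array 1, Rheb1-/- progenitor arrays 2 and 3 and Rheb1-/- myeloid cell array 3 in turn.

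Markers of other blood lineages were examined because any of them could be in the samples. Eosinophil, basophil and mast cell markers fell in 16 of 24 and rose in 3 (median -2.32). Epx, the eosinophil peroxidase gene, read 7.48, 6.05 and 6.57 on the 3 progenitor arrays and 2.15, 0.27 and 0.88 on the 3 myeloid cell arrays, a fall to a lower range on every array (-5.60 ± 0.55, limma adjusted p = 8.23e-06). Array 1 was the highest in both groups. Prg2 and Prg3, of eosinophil granules, fell by 4.30 and 5.33, and Cpa3 and Mcpt8, proteases of mast cells and basophils, by 5.28 and 2.97. Mean levels of this list were 0.92 to 1.83 over Rheb1-/- progenitor arrays and -1.45 to -0.15 over Rheb1-/- myeloid cell arrays. Of the other largest falls, the zinc transporter gene Slc30a2 was at least 17.7-fold lower, Myct1 at least 22.5-fold, the muscle LIM protein gene Csrp3 at least 19.8-fold, Robo3 at least 13.9-fold, Vit at least 10.9-fold (another probe, above background on 3 of the 6 arrays, gave -2.79 in log2), Klhl3 and Trnp1 each at least 6.59-fold and Hcn3 at least 5.73-fold, all below background in myeloid cells. The receptor gene Il17rb fell by 4.94 (-3.21 by another probe, above background on 3 of the 6 arrays), and Scin and Pdgfrb, above background on 1 of 3 myeloid cell arrays, changed by -4.90 and -4.73.

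B cell markers rose in Rheb1-/- myeloid cells, some of them less than in wild type. B cell markers rose in 15 of 23 (median 1.18, wild type 3.16) and fell in 1, and they rose in 5 within the slide. Their mean level was -3.81 to -2.98 over Rheb1-/- progenitor arrays, -2.38 to -1.75 over Rheb1-/- myeloid cell arrays and -0.95 to 0.01 over wild-type myeloid cell arrays, with 1 marker below background on all Rheb1-/- myeloid cell arrays. The changes of 7 B cell markers were lower without Rheb1 and of 0 higher, and the first count was 15 with normexp background correction and lay between 4 and 13 when 1 of the 12 arrays was left out, moving by over 1.5 times without any array other than Rheb1-/- progenitor array 2 and Rheb1-/- myeloid cell arrays 1 and 3. T and NK cell markers rose in 11 of 28 and fell in 5 (6 rose and 4 fell within the slide), with 6 rises without Rheb1-/- myeloid cell array 1, 7 without Rheb1-/- myeloid cell array 3 and 6 without Rheb1-/- progenitor array 2. Cd3d, of the T cell receptor complex, rose by 3.55 against 5.47 (difference -1.92), and the cytotoxic granule genes Gzmb and Nkg7 fell by 2.98 and 1.84. Cd3e, of the same complex and above background on all 6 Rheb1-/- arrays, changed by only 0.46 (0.11 within the slide). Another probe of Cd3e, above background on 1 of the 6 arrays, gave 1.40. Cd3g (2.26) was above background on 0 of these arrays and Cd8a (1.65) on 1, so their changes have no firm size. Plasma cell markers rose in 5 of 7 and fell in 1, and dendritic cell markers rose in 12 of 24 and fell in 6.

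Erythroid markers had no common direction, 9 of 26 up and 8 down (median 0.28, wild type 1.52 with 16 up). Their mean level spread from -1.91 to -0.51 over the Rheb1-/- myeloid cell arrays, array 1 being the highest, and the median was -0.10 without that array and 13 rose without array 2. The globin genes Hba-a1 and Hbb-bt rose by 5.34 and 4.70. Platelet markers rose in 7 of 21 and fell in 10, stem cell markers in 2 and 13 of 18 (2 rose and 7 fell within the slide), and stroma and endothelium markers in 6 and 8 of 20. In Rheb1-/- myeloid cells, 22 of 28 tested T and NK and 21 of 26 erythroid markers were well above background on all 3 arrays. So were 21 of 24 dendritic cell and 15 of 20 stroma markers. In Rheb1-/- progenitors these counts were 22, 19, 20 and 12. The filter had left out markers that were dim in every group, which in part fixes these shares. The shares therefore do not show which cells were present. The part of cells of other lineages in the changes of other lists was not tested. Set beside the labels, myeloid cells had higher Ltf and Csf1r and lower Cd34 and Kit than progenitors, as given above. Cd34 and Kit still read above the 75th percentile of each myeloid cell array, and the differences of Mpo and Ly6c2 did not pass.

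The largest differences by the interaction test were sought among officially named genes well above background on all arrays of a Rheb1-/- group. Genes bright only in wild-type cells could thus not enter. The genes so taken were not of 1 kind. Besides Maff, Fosl1, Atf3, Jun and the orphan receptor gene Nr4a2 (1.98), the higher changes without Rheb1 were those of Myl10, a myosin light chain gene (3.41), and Cyb561 (1.99). Myl10 read -2.06, -3.22 and -0.77 on the 3 progenitor arrays and -3.25, -2.15 and -1.31 on the 3 myeloid cell arrays in Rheb1-/- mice and -1.60, -0.72 and -1.22 on wild-type progenitor arrays and -5.22, -4.05 and -5.16 on wild-type myeloid cell arrays, so that it was low in wild-type myeloid cells. The lower changes were those of the embryonic globin gene Hbb-y (-3.49), the homeobox gene Lhx1 (-3.23), the antibody segment Igkv1-117 (-3.22), R74862 (-3.21) and the polarity gene Vangl1 (-2.87). Igkv1-117 was above background on 2 of 3 Rheb1-/- and 1 of 3 wild-type progenitor arrays, Hbb-y on 2 of 3 wild-type progenitor arrays and Vangl1 on 2 of 3 Rheb1-/- myeloid cell arrays. Fam110c (higher), Olfr693, Chmp4c and Aanat, the melatonin enzyme gene (lower), were below background on all arrays of at least 1 group, so no size or rank of their differences is given. For Olfr693 this group was the Rheb1-/- myeloid cells, for Chmp4c and Aanat the wild-type progenitors, and for Fam110c every group but the Rheb1-/- myeloid cells.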

How the data were processed

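Single-colour Agilent arrays of 12 replicated samples (3 each of progenitors and myeloid cells, Rheb1-/- and wild type) were read from the deposited scanner files, which hold the processed signal intensity of each spot after the scanner software's background subtraction (Feature Extraction, 10.7.3.1 per the file headers and 9.1 per the submitters' processing notes). The authors' deposited log2 value table served as an alternative (the same spread of values and a median of 5.92 on every array, correlating with the scanner's log2 signal at 0.998 to 1), and the flags for well above background in the deposited files, which are other than intensities, as a filter. Control spots and outlier flags were left out, each array's 75th percentile was subtracted from its log2 intensities, and spots of a probe were averaged. Of 39039 autosomal probes, named by accession, symbol or the file's own name, 1 per gene was kept, by its highest mean, leaving 16749 genes whose probe was well above background on the 3 arrays of some group. These were fitted in limma 3.58.1 (R 4.3.3) with 1 mean per group (residual degrees of freedom 8), two-sided tests and Benjamini-Hochberg adjustment over all genes at 0.05. A fold against a group below background on all its arrays is a lower bound from the lowest signal well above background. Alternatives changed background correction, scaling, probe choice, filter, blocks and samples. The method was also run on simulated data with independent noise and no slide effects, so that run cannot show how slides affect the results here.

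Named genes were Rheb, the 15 largest rises and falls, fixed anchor genes, up to 4 members of each list with the smallest p in each direction and the 8 largest differences each way. Ect2, Cdca5, Dtl and Uhrf1 were added after their values were seen. Members and lists were chosen with earlier results of these data known.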

Additional observations from a re-analysis of the deposited data

Results flagged for a closer look

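The change between progenitors and myeloid cells differed between the genotypes, by a test of the difference itself (limma interaction, adjusted p at 0.05), for 1884 of 16749 genes. The named genes among them follow with the difference in log2 units, Rheb1-/- minus wild type.

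Among progenitor and growth control genes these were Myc (1.52), Kit (0.67), Cdk6 (0.98) and Grb10 (1.79). Among primary granule genes they were Elane (1.02), Prtn3 (1.35), Ctsg (1.24), Prss57 (1.06) and Cst7 (1.26). Among genes of mature neutrophils, macrophages and their actin they were Padi4 (-0.74), B4galt6 (0.85), Cd5l (-2.44), Cd68 (-0.71), Lcp1 (-0.50) and Cat (-0.94). Ribosome and translation genes with a difference were Npm1 (0.93), Nop58 (1.02), Fbl (0.54), Ppan (0.97), Rpl31 (0.73), Rpl8 (0.52), Eif4a1 (0.66), Eif3b (0.76) and Eef1e1 (0.60). The stress factor Atf4 differed by 0.99 and nucleotide synthesis genes by similar amounts, Cad (0.91), Ctps (0.87) and Ppat (0.77).

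In cell cycle genes the differences were Mcm2 (0.70), Ung (0.85), Rrm2 (1.01), Dtl (1.09), Uhrf1 (0.65), Mki67 (0.72), Kif23 (0.65), Ect2 (0.79), Cdca5 (0.83) and Cdkn1a (1.76). In metabolism they were Txnip (-0.71) and Slc16a1 (0.95). Immediate early genes had Fosl1 (3.37), Atf3 (2.76), Jun (2.07), Maff (3.66) and Nr4a2 (1.98), and the T cell marker Cd3d had -1.92. Other large differences were those of Myl10 (3.41), Cyb561 (1.99), Hbb-y (-3.49), Lhx1 (-3.23), Igkv1-117 (-3.22), R74862 (-3.21) and Vangl1 (-2.87). Of these, Hbb-y, Igkv1-117 and Vangl1 were below background on part of the arrays of some group.

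Of these 53 calls, 18 were lost in at least 1 fit that left out an array. Padi4 lost the call in 11 of 12 fits with 1 array left out, Eef1e1, Eif4a1, Elane and Rrm2 in 10, Igkv1-117, Mki67, Myl10, Rpl8 and Vangl1 in 9, B4galt6 in 8, Cyb561 and Lcp1 in 7, Kif23 in 6, Kit and Txnip in 5, Prtn3 in 4 and Cat in 1. Elane ranged from 0.91 to 1.23 over these fits, Mki67 from 0.62 to 0.81 and Rrm2 from 0.82 to 1.22.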

How the results depend on the processing

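Genes passing for Rheb1-/- cells (11505) and for wild type (13035) moved by under 1.5 times in every alternative but the 2-fold minimum, where they were 5872 and 7967. They ranged from 10607 to 11603 and from 12368 to 13031 with 1 array left out. The difference between genotypes (1884 genes) was less stable, at 797 without a filter on dim probes, 658 with a 2-fold minimum and 912 to 2092 with 1 array left out. With slide as a fixed block the Rheb1-/- comparison gave 9280 genes, and the wild-type comparison and the difference could not be fitted. Normexp background correction gave 10177, 12302 and 1481 genes, quantile normalization 11474, 12877 and 2050, and the deposited values 11475, 12868 and 2037.

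The replicate number is not tied to an animal or batch by the labels, and deviations of same-numbered arrays correlated at 0.09, 0.13 and -0.07 in Rheb1-/- and -0.04, 0.00 and 0.04 in wild type. In neither genotype did every array correlate best with its own number. With the replicate block 11386, 12904 and 1277 genes passed, and the difference passed in 28 of 73 replication genes, 23 of 90 mitosis genes, 5 of 18 primary granule genes, 2 of 65 actin genes and 0 of 38 secondary granule genes, where Padi4 and B4galt6 lost their calls.

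Over all alternatives, 7381 values of named genes gave 346 lost calls, 15 gained calls and 18 changes of direction. The changes of direction touched genes near 0 or with disagreeing probes, and their cause was not tested. When probes of a gene were averaged, the Rheb1-/- change was 0.04 for Ect2 and -0.26 for Rpl21, and with normexp the difference of Vit was -0.12. With slide as a fixed block Atf4 was at -0.11, Jun at 0.34 and Maff at -0.27. Cdk1 was at -0.03 with slide as a random block and -0.01 with array weights, which put Myl10 at 0.01. With 1 array left out Jun ran from -0.25 to 0.23, Atf4 from -0.03 to 0.20, Maff from -0.23 to 0.51, Cdk1 from -0.07 to 0.10 and Myl10 from -0.82 to 0.40.

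The 3 arrays per group, and signal near background for dim probes, limit the precision of small changes.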
